A study of Rattus norvegicus with 22 samples.

Results

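The 10 genes described here encode 5 Wnt ligands (Wnt4, Wnt5a, Wnt7b, Wnt9b and Wnt11), the Frizzled receptors Fzd1 and Fzd4, the planar cell polarity protein Vangl2, the intracellular feedback inhibitor Axin2 and the secreted Dickkopf family protein Dkk3. They are 10 of the 17334 genes listed for the kidney RNA of 22 rats, were found by their Entrez identifiers (84426, 64566, 315196, 303586, 140584, 58868, 64558, 289229, 29134 and 171548 in the order given), and all 10 were among the 12867 genes that passed the filter on low counts. They were selected on expression values of these same rats, among them the level of Wnt4 beside that of the uroplakin gene Upk3a. Differences of these genes between the groups are therefore given as descriptions, beside the value each has in a fit over all genes.

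Wnt ligands are lipid-modified secreted proteins that bind Frizzled receptors. In the canonical branch the signal stabilises beta-catenin, which acts with TCF/LEF factors on target genes, of which Axin2 is the usual reporter because its product takes beta-catenin down again. In the planar cell polarity branch, to which Vangl2 belongs and in which Wnt5a and Wnt11 can act, the signal orients cells and their divisions within the epithelium, and loss of oriented division is a known route to dilated tubules. In the developing kidney Wnt9b is made by the ureteric bud, Wnt4 by the forming nephron, Wnt11 by the bud tips and Wnt7b by the collecting duct.

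All 22 animals were male PKD/Mhm (Cy/+) rats aged 8 months, which carry a missense mutation of Anks6, the gene of SamCystin, and have polycystic kidneys. The untreated group holds 6 rats. Injection of ASC, which are stromal cells from human fat, was i.p. in 6 rats and i.v. in another 6, and 4 rats were given ASC-derived CM, the supernatant of such cells. ASC and ASC-derived CM were given monthly over 6 months, ASC with 2000000 cells per injection. The labels give no route for ASC-derived CM, and the study's texts name both i.v. and i.p. The mutation is shared by every group, and no wild-type kidney, no vehicle-injected rat and no ABCB5+ group was analysed here. Each value comes from the RNA of 1 left kidney, and the labels name each rat by an animal number, used below.

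The 8 promoters of these genes found in the RefSeq table of the rat assembly GRCr8 were searched for the letters CTTTGAT and CTTTGAA, a pair of forms of the site of TCF/LEF factors, on both strands in the 250 bases before the start. The forms differ in the last letter and cannot overlap in one place. Wnt7b and Dkk3 have no entry in the table. The promoter of Axin2, the canonical target gene, is shown because it is the only one of the 8 with a match, and those of Wnt4 and Wnt9b because these ligands were highest in the same rats. Capitals mark the matches, and the sequences run 5′ to 3′ on the strand of the gene.
Axin2: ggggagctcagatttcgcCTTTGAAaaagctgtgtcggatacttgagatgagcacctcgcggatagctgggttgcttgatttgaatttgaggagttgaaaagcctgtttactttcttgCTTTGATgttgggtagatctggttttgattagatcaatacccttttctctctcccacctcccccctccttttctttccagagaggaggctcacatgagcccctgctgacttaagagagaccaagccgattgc
Wnt4: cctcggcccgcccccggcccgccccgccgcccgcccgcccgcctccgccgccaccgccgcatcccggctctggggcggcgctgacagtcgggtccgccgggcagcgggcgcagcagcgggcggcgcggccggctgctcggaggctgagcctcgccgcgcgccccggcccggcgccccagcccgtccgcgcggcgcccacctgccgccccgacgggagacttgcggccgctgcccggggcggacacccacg
Wnt9b: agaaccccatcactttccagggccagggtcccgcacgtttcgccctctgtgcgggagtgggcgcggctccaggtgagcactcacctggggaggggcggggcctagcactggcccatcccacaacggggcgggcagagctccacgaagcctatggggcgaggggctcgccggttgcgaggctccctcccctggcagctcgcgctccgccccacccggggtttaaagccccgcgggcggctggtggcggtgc
The Axin2 stretch lies at chr10:94398535-94398784 on the plus strand, with CTTTGAA beginning 232 and CTTTGAT 132 bases before the start. Of 27457 rat promoters of this length, 4.63% hold CTTTGAA, 3.18% hold CTTTGAT, and 0.233% hold both. The Wnt4 stretch (chr5:154797200-154797449, plus strand) consists of 86.4% G and C, and that of Wnt9b (chr10:89157066-89157315, minus strand) of 72.4%, against 47.6% for Axin2 and a median of 52.0% over all promoters. These matches describe letters in the reference and not binding.

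Each rat had between 12195682 and 14734772 counts in all. Genes of the kidney were present in every rat, with the collecting duct water channel Aqp2 at 406 to 1582 TPM (a level scaled to transcript length and to the rat's total) and the proximal tubule glucose transporter Slc5a2 at 14.8 to 148 TPM. Anks6 was at 14.3 to 26.3 TPM in all 22 rats with overlapping groups, and a missense mutation need not change its level. Some rats stood apart. Upk3a, a membrane protein of the urothelium that lines the renal pelvis, was at 68.3, 130.1 and 22.3 TPM in i.v. ASC rats 3, 9 and 13 and at most at 3.35 TPM in the other 19. Rats 9 and 13 also had 29.6 and 20.4 TPM of Slc14a2, a urea transporter of the inner medulla, which was at 20.4 TPM in ASC-derived CM rat 11 and at most at 8.56 TPM in the other rats. Slc7a13, a transporter of the last proximal tubule segment picked after its values were seen, was at 1319 to 2308 TPM in 5 treated rats (i.p. ASC rats 5 and 7, i.v. ASC rats 3 and 9, ASC-derived CM rat 2) and at 10.2 to 841 TPM in the other 17, the 6 untreated rats among them. In whole-kidney RNA, fewer cells of a type and less RNA per cell cannot be told apart.

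The 10 genes covered a wide range of levels. Over the 22 rats the mean TPM was 79.6 ± 14.7 (SD) for Fzd1, 53.6 ± 7.10 for Fzd4, 8.22 ± 2.94 for Dkk3, 5.67 ± 2.23 for Wnt5a, 5.21 ± 1.36 for Axin2 and 4.98 ± 4.36 for Wnt7b. Below these lay Wnt4 at 2.62 ± 3.12, Wnt9b at 1.30 ± 1.30, Vangl2 at 0.793 ± 0.309 and Wnt11 at 0.561 ± 0.246 TPM. The receptors therefore stood above every ligand, at the 84.0th and 76.5th percentile of the genes tested for Fzd1 and Fzd4, whereas Wnt11 stood at the 2.72nd. Fzd1 was above Fzd4 in all 22 rats and Fzd4 above Dkk3 in all 22. Wnt5a was above Axin2 in 9 of 22 rats and Wnt9b above Vangl2 in 13 of 22, and from Dkk3 downwards the mean ± SD of every gene overlapped that of the next.

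**Figure D1:**
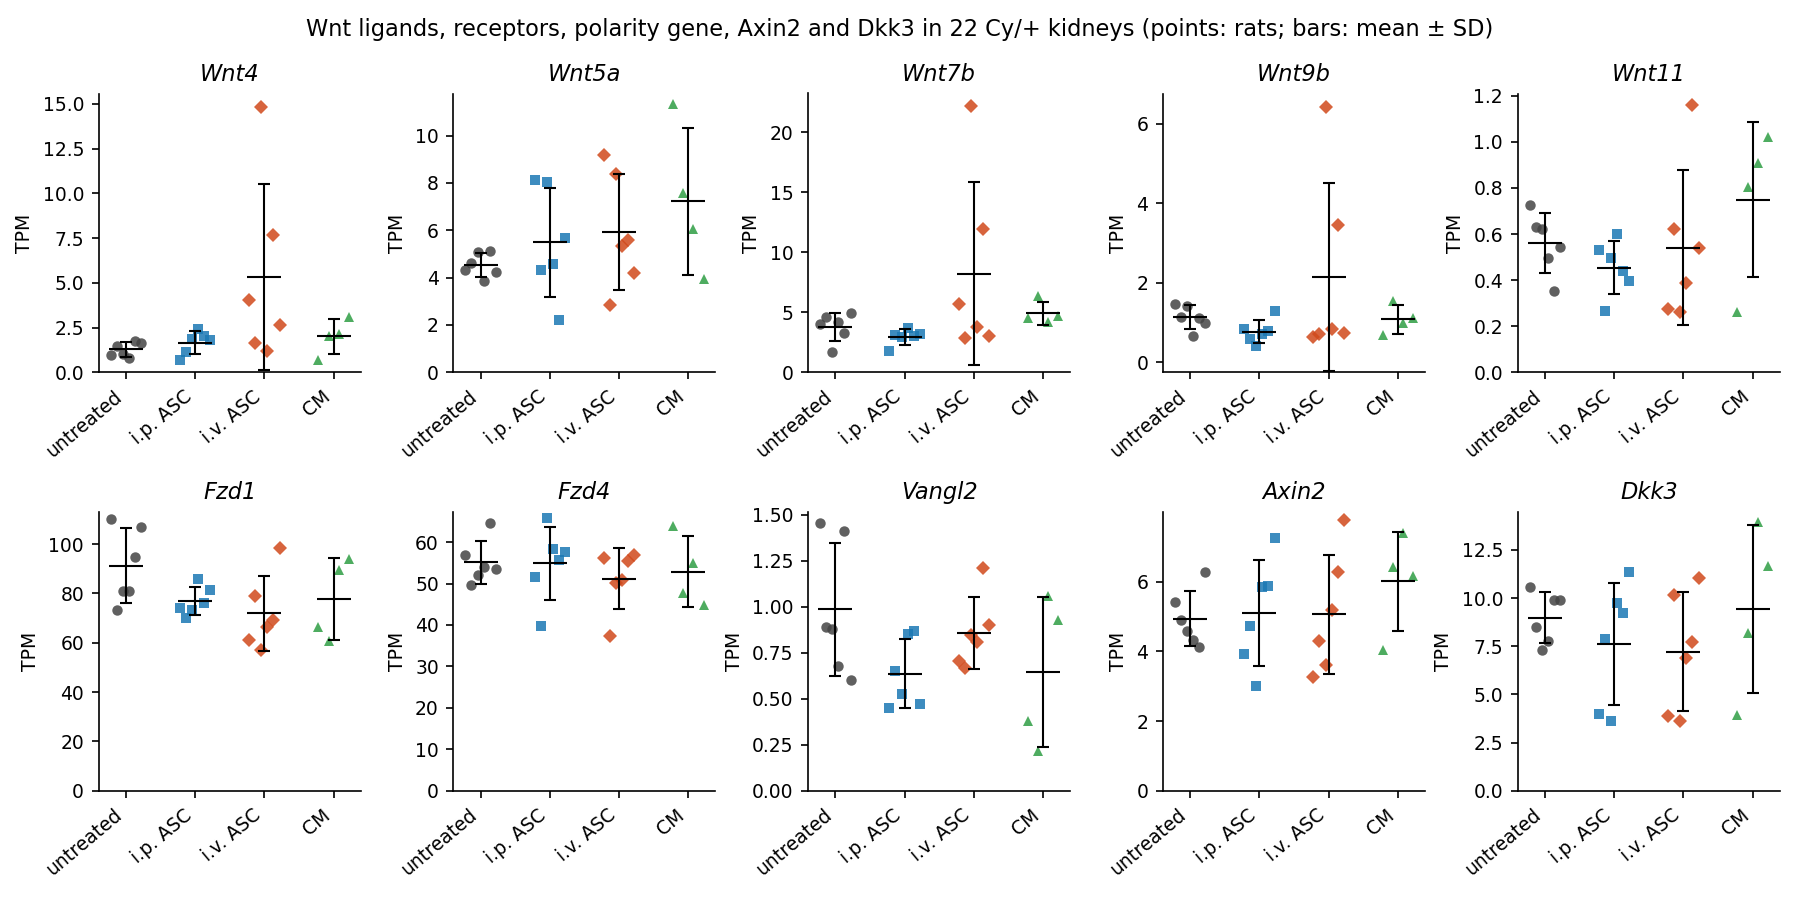
TPM (y axis, linear) of the 10 genes in each of 22 rats, by treatment group (x axis), with points for rats and black bars for the mean ± SD of the group. The i.v. ASC group holds the highest rat for Wnt4, Wnt7b and Wnt9b, at 14.85, 22.1 and 6.43 TPM, and for every gene each treated group overlaps the untreated group.

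Wnt4, a ligand that drives the mesenchymal-to-epithelial step of nephron formation, was low in untreated kidneys, at 0.784 to 1.78 TPM with a median of 1.26 TPM (n = 6), which rested on 7 to 18 counts per rat. After i.p. ASC it lay between 0.715 and 2.43 TPM with a median of 1.83 TPM. After ASC-derived CM it was at 0.713, 2.05, 2.15 and 3.09 TPM in rats 2, 11, 19 and 21. The i.v. ASC group spread from 1.17 to 14.85 TPM with a median of 3.35 TPM and up to 148 counts. Rats 9 and 13 held the highest values, at 14.85 and 7.67 TPM, rat 3 followed at 4.02 TPM, and the other 3 i.v. ASC rats were within the range of the other groups. The i.v. ASC group was 4.51-fold above the untreated group, a log2 fold change of 2.17 ± 0.50 (SE), with an adjusted p of 0.267 in the quasi-likelihood test of edgeR after Benjamini-Hochberg adjustment. DESeq2 gave 2.20 ± 0.50 with an adjusted p of 0.00922, one of 22 genes it called in this comparison, 0.171% of those tested. Without rats 3, 9 and 13 the log2 fold change was 0.58 ± 0.36. These rats held the highest Wnt4, so this fall follows from leaving them out.

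Upk3a was read beside Wnt4 in each rat. In the 3 rats with Upk3a above 20 TPM Wnt4 was at 4.02 to 14.85 TPM, and in the other 19 at 0.713 to 3.09 TPM, so these sets of rats did not overlap in Wnt4. This relation was used in selecting the genes. How many of all genes tested separate these sets of rats was not counted, so nothing is read from it. The order within the 3 was not the same, since rat 3 had 68.3 TPM of Upk3a and the lowest Wnt4, and rat 13 had 22.3 TPM of Upk3a and 7.67 TPM of Wnt4. Within the 19 rats, Pearson's r of log2(TPM + 1) was -0.02 (jackknife SE 0.18) and Spearman's rho 0.07. Leaving out the 2 rats farthest from the median of Upk3a gave r = 0.09 over 17 rats. No r is given over all 22, because the rats form separate clusters.

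Wnt7b, a ligand needed for the elongation of the medullary collecting duct, ranged from 1.72 to 4.90 TPM in untreated rats with a median of 4.11 TPM. It ranged from 1.74 to 3.69 TPM after i.p. ASC, median 3.03 TPM, and was at 4.55, 6.33, 4.16 and 4.68 TPM in the ASC-derived CM rats 2, 11, 19 and 21. In i.v. ASC rats 9 and 13 it reached 22.1 and 11.9 TPM, and the other 4 rats of that group were at 2.85 to 5.70 TPM. The log2 fold change was 1.23 ± 0.41 against untreated rats (adjusted p = 0.523, edgeR) and 1.52 ± 0.42 against i.p. ASC (adjusted p = 0.632, edgeR). Leaving out rats 3, 9 and 13 turned the first to -0.12 ± 0.27 and brought the second to 0.16 ± 0.27. These rats held the highest Wnt7b of the i.v. ASC group, so both falls follow from leaving them out.

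Wnt9b, the ureteric bud ligand that also acts in tubule polarity, was at 0.653 to 1.47 TPM in untreated rats, median 1.13 TPM, and at 0.399 to 1.28 TPM after i.p. ASC, median 0.752 TPM. The ASC-derived CM rats 2, 11, 19 and 21 had 0.674, 1.54, 0.9825 and 1.11 TPM. In the i.v. ASC group the median was 0.794 TPM, while rats 9 and 13 reached 6.43 and 3.455 TPM. Rat 3, with its high Upk3a but 0.851 TPM of Slc14a2, was the lowest of the group in Wnt9b at 0.643 TPM. The log2 fold change of i.v. ASC against untreated was 1.07 ± 0.50 (adjusted p = 0.523, edgeR) and became -0.50 ± 0.32 without rats 3, 9 and 13. Rats 9 and 13 held the highest Wnt9b, so this fall follows from leaving them out. A high Wnt9b went with a high Slc14a2 in 2 of the 3 rats with the most Slc14a2. The third, ASC-derived CM rat 11 with 20.4 TPM of Slc14a2, had 1.54 TPM of Wnt9b and 6.33 TPM of Wnt7b. Both were the highest of the CM group. Slc14a2 is 1 of 6 inner medulla genes listed, and their sum in rat 11 was 141 TPM, below the 166 TPM of untreated rat 1.

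**Figure D2:**
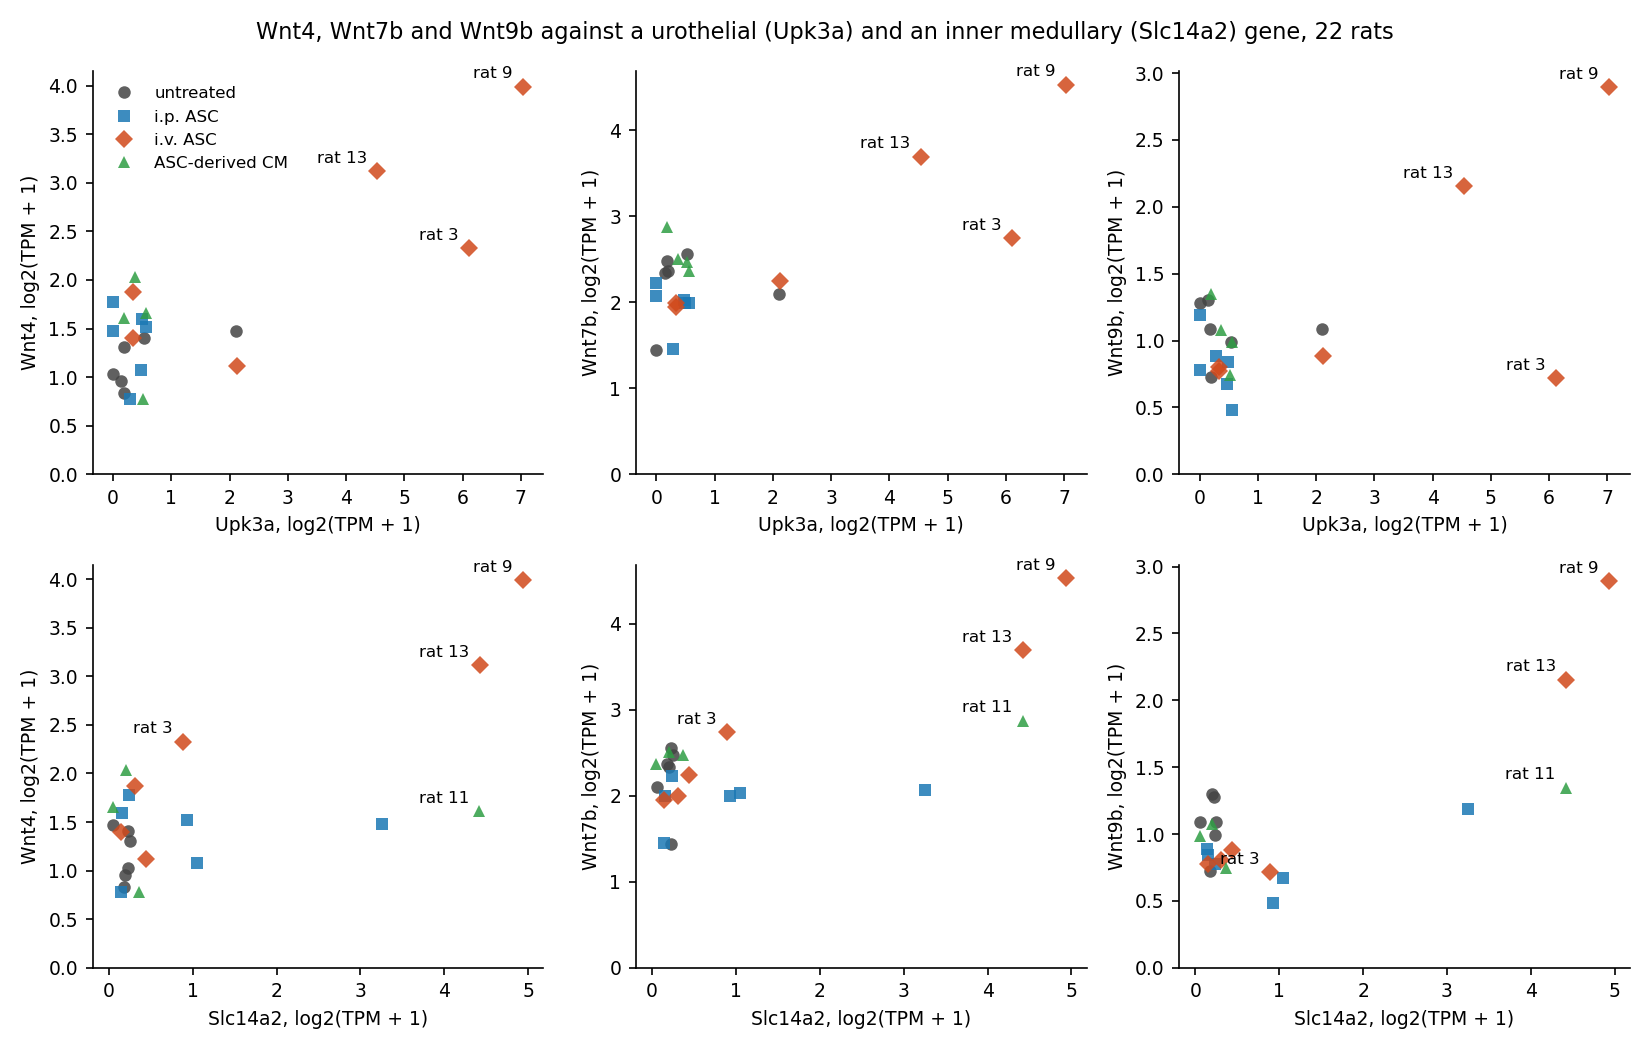
Wnt4, Wnt7b and Wnt9b (columns, y axis, log2(TPM + 1)) against the urothelial gene Upk3a (top row) and the inner medullary gene Slc14a2 (bottom row, both x axes log2(TPM + 1)), with 1 point per rat and symbols by group. Rats 9 and 13 lie at the upper right of all 6 panels, whereas rat 3 is high for Upk3a with 0.643 TPM of Wnt9b.

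The summed level of the 7 listed urothelium markers (of 8 fixed) was 2.29 to 17.2 TPM in untreated rats, 2.17 to 14.9 TPM after i.p. ASC, 3.06 to 5.03 TPM after ASC-derived CM and 2.86 to 654 TPM after i.v. ASC, with rats 3, 9 and 13 at 388, 654 and 195 TPM. The 6 inner medulla genes summed to 84.6 to 166 TPM in the other 3 groups and to 101 to 320 TPM after i.v. ASC, with rats 9 and 13 at 320 and 172 TPM. The 7 collecting duct markers summed to 1772 to 2805 TPM in untreated rats, 1294 to 2592 TPM after i.p. ASC, 1893 to 3418 TPM after i.v. ASC and 1614 to 1838 TPM after ASC-derived CM. Rats 9 and 13 had the highest sums of the 22, 3418 and 2995 TPM, and the highest Aqp2, 1582 and 1501 TPM. With the urothelium markers as a covariate, the log2 fold changes of i.v. ASC against untreated were 0.59 ± 0.45 for Wnt4, -0.30 ± 0.37 for Wnt7b and -0.58 ± 0.54 for Wnt9b. This list holds Upk3a, which was used in selecting the genes. Its sum was high only in rats of the i.v. ASC group, so covariate and group are entangled and nothing is read from the change. For Wnt4, Wnt7b and Wnt9b the proximal tubule covariate gave 2.105 ± 0.516, 1.129 ± 0.411 and 0.94 ± 0.502 in this comparison. With 1 surrogate variable the values were 1.976 ± 0.556, 0.886 ± 0.442 and 0.72 ± 0.542. The part of urothelium, inner medulla and collecting duct in the levels of these ligands was not tested.

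Wnt5a, the main ligand of the beta-catenin-independent branch, kept a narrow range in untreated rats, 3.84 to 5.14 TPM with a median of 4.48 TPM. Both ASC groups reached below and above it, and ASC-derived CM above it. The range was 2.22 to 8.13 TPM after i.p. ASC (median 5.13 TPM) and 2.86 to 9.19 TPM after i.v. ASC (median 5.47 TPM). After ASC-derived CM rats 2, 11, 19 and 21 had 11.3, 7.58, 6.05 and 3.96 TPM. The log2 fold changes against untreated rats were 0.37 ± 0.33, 0.52 ± 0.33 and 0.76 ± 0.36 for i.p. ASC, i.v. ASC and ASC-derived CM, with adjusted p-values of 0.801, 0.539 and 0.711 (edgeR). The highest 5 values were those of the 5 rats with Slc7a13 above 1000 TPM, at 8.03 to 11.3 TPM against 2.22 to 7.58 TPM in the other 17. Without these 5 rats the log2 fold changes were -0.06 ± 0.23, 0.02 ± 0.23 and 0.41 ± 0.25. All 5 are treated rats with the highest Wnt5a, so this fall follows from the choice of rats. With all rats and the podocyte markers as a covariate the log2 fold changes of Wnt5a were 0.09 ± 0.21, -0.21 ± 0.24 and 0.02 ± 0.26. With 1 surrogate variable they were -0.17 ± 0.11, -0.11 ± 0.11 and 0.15 ± 0.12. With the proximal tubule markers as a covariate they were 0.32 ± 0.33, 0.54 ± 0.32 and 0.76 ± 0.355. The podocyte covariate was chosen after seeing the data. The podocyte markers summed to 39.7 to 109.5 TPM in the 5 rats with the highest Wnt5a and to at least 129.9 TPM in untreated rats. Covariate and group are therefore entangled, and nothing is read from the change with the podocyte markers.

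Wnt11, a ligand of the ureteric bud tip, was the lowest of the 10 genes, with 7 to 28 counts per rat. It was at 0.353 to 0.724 TPM in untreated rats, at 0.266 to 0.6001 TPM after i.p. ASC and at 0.262 to 1.16 TPM after i.v. ASC, with medians of 0.582, 0.468 and 0.464 TPM. The ASC-derived CM rats 2, 11, 19 and 21 had 0.263, 0.804, 0.910 and 1.02 TPM, so that 3 of 4 lay above every untreated rat and 1 below. The log2 fold change of ASC-derived CM was 0.44 ± 0.36 (adjusted p = 0.840, edgeR). Without the 5 rats of high Slc7a13 it was 0.70 ± 0.32. Rat 2, the lowest of the ASC-derived CM group, is among these rats, so this rise follows from the choice of rats.

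Of the receptors, Fzd1 ranged from 73.4 to 110.3 TPM in untreated rats, median 88.0 TPM. Its medians were 75.1 TPM after i.p. ASC (70.2 to 85.9 TPM), 67.9 TPM after i.v. ASC (57.2 to 98.6 TPM) and 77.96 TPM after ASC-derived CM (66.4, 60.7, 89.5 and 94.0 TPM in rats 2, 11, 19 and 21). In the i.v. ASC group 4 of 6 rats lay below every untreated rat. The log2 fold changes against untreated rats were -0.15 ± 0.10, -0.23 ± 0.10 and -0.17 ± 0.11, with adjusted p-values of 0.771, 0.523 and 0.763 (edgeR). The 3 comparisons share the untreated rats. Fzd1 had 2758 to 5373 counts per rat. Without rats 3, 9 and 13 the value for i.v. ASC was -0.11 ± 0.11. Rats 9 and 3 held the lowest Fzd1 of that group, so this shift follows from the choice of rats.

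Fzd4, the receptor of endothelium that also binds norrin, was the steadiest of the 10 genes, with 37.4 to 65.8 TPM over all rats and a coefficient of variation of 13.3%. Group medians were 53.7 TPM (untreated, 49.6 to 64.6 TPM), 56.7 TPM (i.p. ASC, 39.8 to 65.8 TPM), 53.2 TPM (i.v. ASC, 37.4 to 57.0 TPM) and 51.4 TPM (ASC-derived CM). The ASC-derived CM rats 2, 11, 19 and 21 had 63.9, 47.8, 55.0 and 44.9 TPM. Its log2 fold changes against untreated rats, 0.08 ± 0.11, 0.01 ± 0.11 and 0.02 ± 0.12, were within 1 SE of 0 and had the other sign on the log2(TPM + 1) scale, at -0.02, -0.11 and -0.07. On that scale the median of all genes was itself shifted by -0.10, -0.12 and -0.07.

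Vangl2, a core planar polarity gene, had 6 to 44 counts per rat. It was at 0.601 to 1.45 TPM in untreated rats (median 0.885 TPM), 0.448 to 0.869 TPM after i.p. ASC (median 0.590 TPM) and 0.667 to 1.21 TPM after i.v. ASC (median 0.827 TPM). The ASC-derived CM rats 2, 11, 19 and 21 had 0.377, 0.218, 1.06 and 0.925 TPM. After i.p. ASC 3 of 6 rats were below every untreated rat, with a log2 fold change of -0.54 ± 0.29, and after ASC-derived CM 2 of 4 were, with -0.58 ± 0.33. The adjusted p-values were 0.771 and 0.731 (edgeR), and the value after i.v. ASC was -0.09 ± 0.29.

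Axin2, whose transcript follows canonical signalling, was at 4.12 to 6.26 TPM in untreated rats (median 4.74 TPM), 3.01 to 7.23 TPM after i.p. ASC (median 5.28 TPM) and 3.27 to 7.76 TPM after i.v. ASC (median 4.74 TPM). It was at 4.04, 6.43, 7.39 and 6.15 TPM in ASC-derived CM rats 2, 11, 19 and 21. The log2 fold changes were 0.13 ± 0.18, 0.12 ± 0.18 and 0.34 ± 0.20, with adjusted p-values of 0.863, 0.783 and 0.736 (edgeR). In i.v. ASC rats 9 and 13, with the most Wnt4, Wnt7b and Wnt9b, Axin2 was at 3.60 and 6.26 TPM, the fifth and the second of the 6 rats of that group. Over the 19 rats without rats 3, 9 and 13, r with Axin2 was 0.45 for Wnt4, 0.21 for Wnt7b and 0.41 for Wnt9b. With all 22 rats it was 0.05, -0.01 and 0.15. Whether these ligands act on Axin2 was not tested.

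Dkk3, a glycoprotein of the Dickkopf family released by stressed renal tubules, was at 7.32 to 10.6 TPM in untreated rats (median 9.19 TPM), 3.63 to 11.4 TPM after i.p. ASC (median 8.56 TPM) and 3.61 to 11.03 TPM after i.v. ASC (median 7.31 TPM). The ASC-derived CM rats 2, 11, 19 and 21 had 3.95, 8.21, 13.95 and 11.7 TPM. Each treated group held rats below and above the untreated range. The log2 fold changes were -0.15 ± 0.28, -0.22 ± 0.28 and 0.11 ± 0.32, with adjusted p-values of 0.899, 0.742 and 0.980 (edgeR). The 5 rats with Slc7a13 above 1000 TPM had 3.61 to 4.004 TPM of Dkk3 and 3.01 to 4.04 TPM of Axin2, and the other 17 had 6.91 to 13.95 and 4.12 to 7.76 TPM, with no overlap for either gene. Wnt5a, Axin2 and Dkk3 were the only 3 of the 10 genes for which these 5 rats and the other 17 did not overlap. The split by Slc7a13 was picked after the values were seen. How many of all genes tested separate these sets of rats was not counted, so nothing is read from the 3. With the 5 left out, the log2 fold changes of Axin2 were 0.31 ± 0.13, 0.29 ± 0.13 and 0.46 ± 0.14 and those of Dkk3 0.15 ± 0.13, 0.05 ± 0.13 and 0.35 ± 0.15. All 5 are treated rats with the lowest values of both genes, so this rise follows from the choice of rats.

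**Figure D3:**
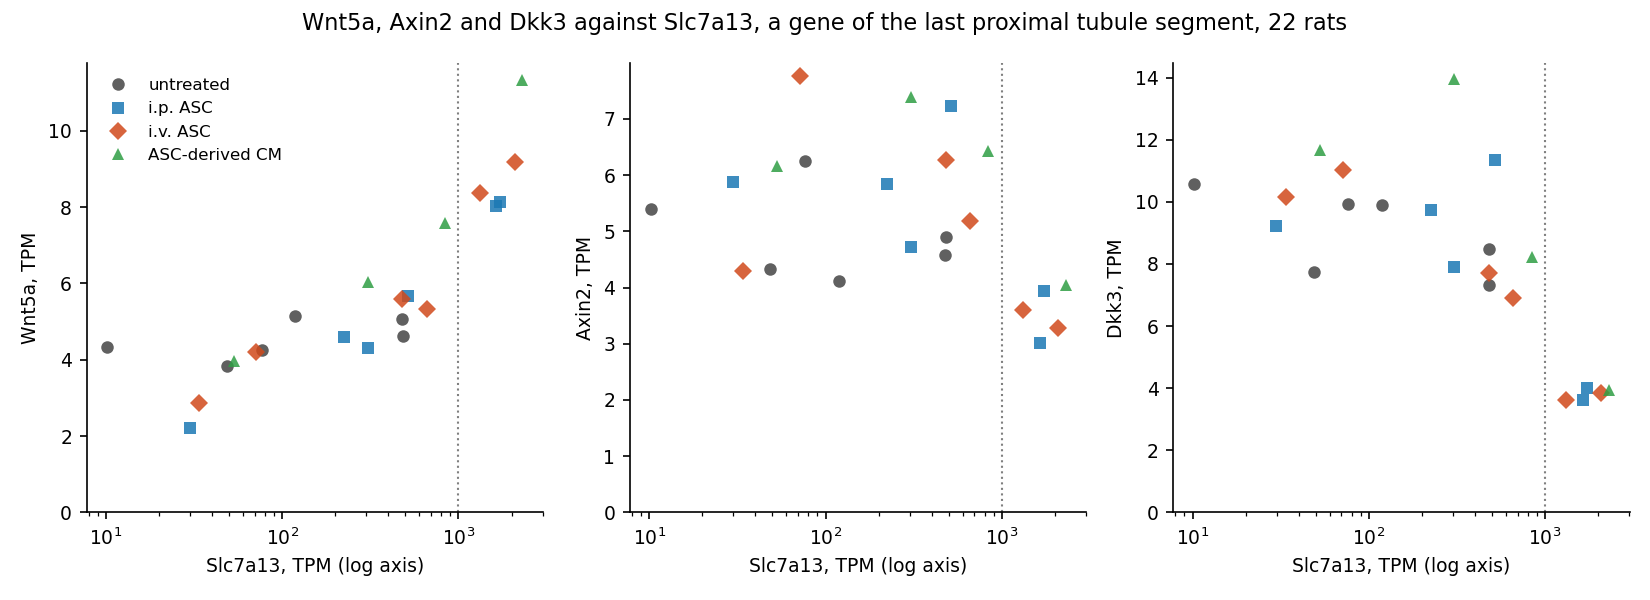
Wnt5a, Axin2 and Dkk3 (y axis, TPM) against the proximal tubule gene Slc7a13 (x axis, TPM, log axis), with 1 point per rat and symbols by group, and a dotted line at 1000 TPM. The 5 rats to the right of the line have the highest Wnt5a, 8.03 TPM or more, and the lowest Dkk3, 4.004 TPM or less. The line was picked after the values were seen, and nothing is read from the separation.

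None of the 10 genes passed the adjusted threshold of 0.05 in any comparison in edgeR, where 0% of the genes tested were called for i.p. ASC, i.v. ASC and ASC-derived CM against untreated rats and for i.v. ASC against i.p. ASC. At an unadjusted p under 0.05, 0 of the 10 genes were listed after i.p. ASC, where 3.89% of all genes tested were (1.75% higher and 2.14% lower). After i.v. ASC 3 were higher (Wnt4, Wnt7b and Wnt9b) and 1 lower (Fzd1), against 3.81% and 5% of all genes, 8.81% together. After ASC-derived CM 1 was higher (Wnt5a) and 0 lower, against 2.84% and 3.75%, 6.6% together. Between the routes the same 3 ligands were higher with i.v. ASC and 0 lower, against 1.64% and 0.544%, 2.18% together. The comparisons share their rats, and nothing is read from these counts, since the genes were chosen with such values known. In a joint test for any difference among the 4 groups, edgeR called 11 genes, 0.0855%, with none of the 10 among them and Wnt4 at an adjusted p of 0.326, whereas DESeq2 called 37 genes (0.288%) with Wnt4 at 0.00794. DESeq2 called 0% of genes after i.p. ASC, 0.0389% after ASC-derived CM and 0.163% between the routes, with none of the 10 among them. No gene of the 10 had a treated group that did not overlap the untreated group, against 0.179%, 0.171% and 1.38% of all genes after i.p. ASC, i.v. ASC and ASC-derived CM, and none separated the routes, against 0.0466%.

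**Figure D4:**
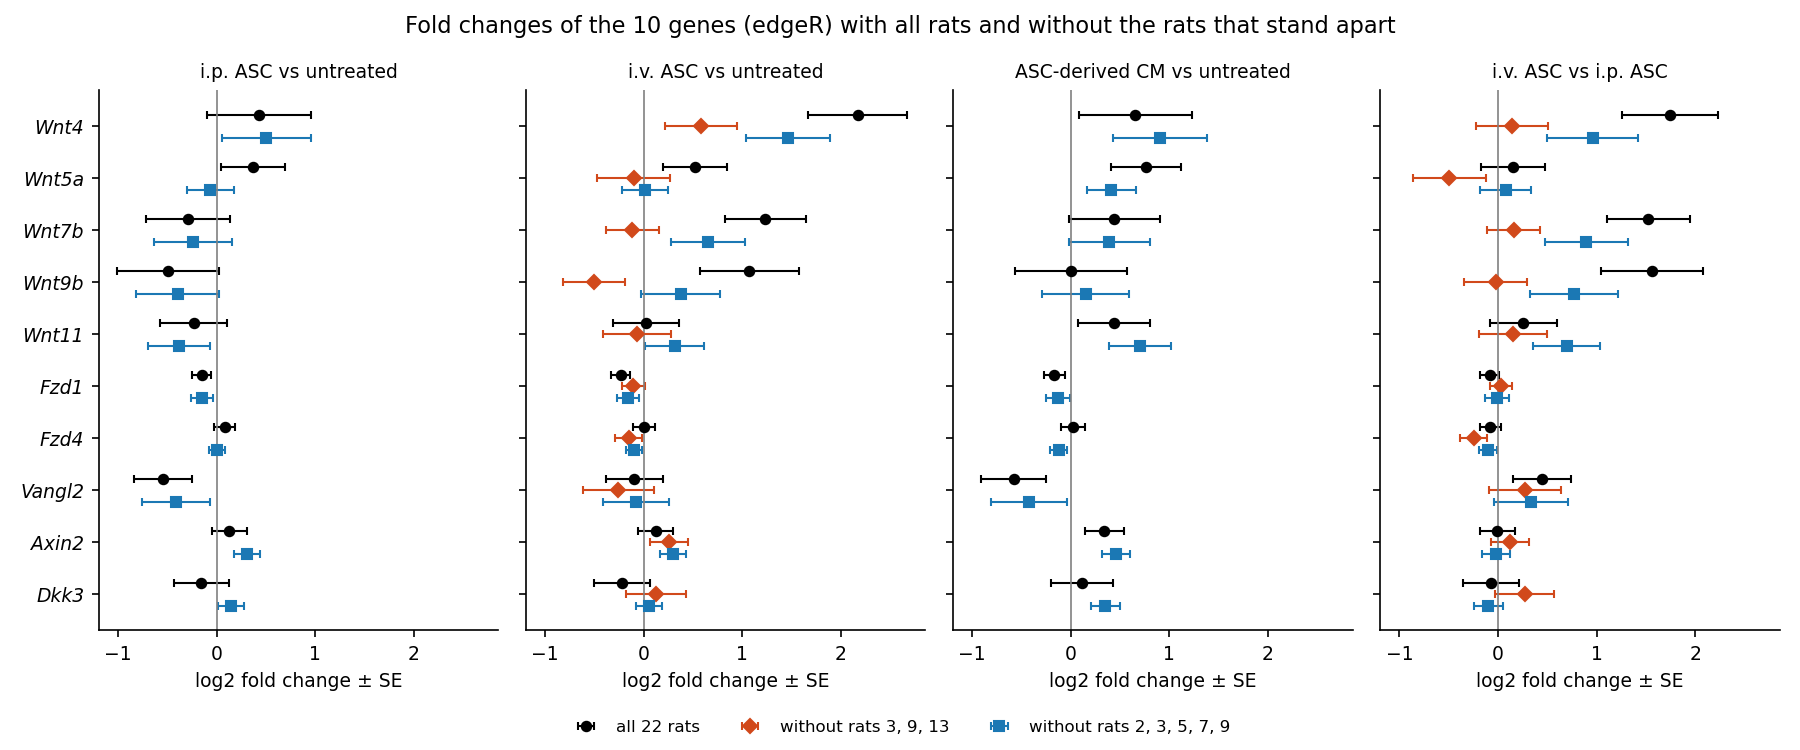
Log2 fold change ± SE from edgeR (x axis) of the 10 genes (y axis) in 4 comparisons (panels), with all 22 rats (black), without i.v. ASC rats 3, 9 and 13 (orange) and without rats 2, 3, 5, 7 and 9 (blue). Wnt4 after i.v. ASC goes from 2.17 to 0.58 without rats 3, 9 and 13, and Wnt9b changes sign from 1.07 to -0.50. Rats 9 and 13 held the highest values of both genes, so these shifts follow from leaving them out.

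The wider Wnt and polarity lists hold 99 genes, of which 89 are in the data and 77 passed the filter, the 10 genes included. Of these 77, 0 passed the adjusted threshold in any comparison in edgeR, DESeq2 called Wnt4 alone after i.v. ASC, and 2, 8 and 5 had an unadjusted p under 0.05 in edgeR after i.p. ASC, i.v. ASC and ASC-derived CM, where 3.89%, 8.81% and 6.6% of all genes had. After i.p. ASC 19 were higher and 58 lower, with a median log2 fold change of -0.08, after i.v. ASC 29 and 48 with -0.07, and after ASC-derived CM 37 and 40 with -0.01, while the median over all genes tested was -0.01, -0.01 and -0.00. Over all 12867 genes tested, 6917, 6751 and 6543 were lower in these comparisons. By role, 13 of 16 receptors and co-receptors were lower after i.p. ASC, 11 after i.v. ASC and 10 after ASC-derived CM, and of the 15 polarity genes 12, 12 and 9 were lower. Of the 11 ligands tested, 5 were higher and 6 lower after i.p. ASC, 9 and 2 after i.v. ASC and 8 and 3 after ASC-derived CM, while 5950, 6116 and 6324 of all genes tested were higher. These counts were not compared by a test. The 7 ligands that did not pass the filter were at a mean of 0.398 TPM or less.

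The genes of these lists with the smallest unadjusted p after i.p. ASC were Gsk3b, the kinase that marks beta-catenin for breakdown, and the polarity cadherin Celsr2. Gsk3b was at 22.2 ± 2.55 TPM against 27.8 ± 3.92 TPM in untreated rats, a log2 fold change of -0.23 ± 0.09, and Celsr2 at 12.6 ± 2.64 against 16.1 ± 2.89 TPM, -0.26 ± 0.11 (SD, n = 6 each; adjusted p = 0.771 for both, edgeR). After ASC-derived CM they were Wls, the carrier that brings Wnt proteins to the cell surface, and the ligand Wnt2b. Wls was at 221 ± 37.2 TPM (SD, n = 4) against 291 ± 47.3 TPM, -0.34 ± 0.12, and Wnt2b at 1.62 ± 1.09 against 0.705 ± 0.258 TPM, 1.31 ± 0.55 (adjusted p = 0.711 for both, edgeR). In the other 2 comparisons they were Wnt4 and Wnt7b.

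Several of the 10 genes followed the marker genes of a cell type over rats, given here as descriptions over the 19 rats without rats 3, 9 and 13. These 19 still hold rats 2, 5 and 7, which stood apart in Wnt5a, Axin2 and Dkk3 and had stroma sums of 287, 213 and 210 TPM. An r can rest on these rats, and none with a marker list was taken without them. Dkk3 followed the 7 interstitial stroma markers with r = 0.92, and Axin2 did so with 0.70, while Fzd4 ran against them with -0.83. The leukocyte markers had like values, 0.68 for Dkk3, 0.65 for Axin2 and -0.75 for Fzd4. Dkk3 had 0.70 with the endothelium markers and 0.19 with the 4 tubular injury markers. Fzd4 had -0.41 with the endothelium markers and 0.71 with the thick ascending limb markers. Wnt5a ran against the 4 endothelium markers with -0.84 and the 4 podocyte markers with -0.75, and Fzd1 against the 4 thick ascending limb markers with -0.77. Wnt5a had 0.74 with the thick ascending limb markers and -0.59 with the stroma markers. Wnt4 had 0.11 with the urothelium markers, 0.56 with the leukocyte markers and 0.46 with the stroma markers in these 19 rats. The summed stroma markers were 330 to 508 TPM in untreated rats, 210 to 560 TPM after i.p. ASC, 193 to 662 TPM after i.v. ASC and 287 to 750 TPM after ASC-derived CM. The endothelium markers summed to 161 to 226, 102 to 230, 66.4 to 224 and 89.3 to 230 TPM, and the podocyte markers to 130 to 295, 98.3 to 236, 48.3 to 232 and 39.7 to 238 TPM, in the same order. The leukocyte markers summed to 108 to 168, 73.99 to 192, 35.9 to 204 and 69.2 to 217 TPM and the thick ascending limb markers to 1305 to 3032, 2078 to 4071, 1566 to 4032 and 1463 to 5344 TPM, again in that order. No list had a marker at 0 in every rat. All points share the composition of 1 piece of kidney RNA per rat, and the part of these cell types in the differences between groups was not tested. With the podocyte markers as a covariate, the log2 fold changes of i.p. ASC, i.v. ASC and ASC-derived CM against untreated rats were -0.10 ± 0.08, -0.11 ± 0.09 and -0.05 ± 0.10 for Fzd1, 0.17 ± 0.17, 0.25 ± 0.19 and 0.47 ± 0.21 for Axin2, and -0.02 ± 0.22, 0.16 ± 0.24 and 0.48 ± 0.27 for Dkk3. Those of Fzd4 were 0.03 ± 0.09, -0.15 ± 0.10 and -0.14 ± 0.11. This covariate was chosen after seeing the data, and the podocyte sums reached lower in each treated group than in untreated rats. Covariate and group are entangled, so these fits do not test the part of podocytes.

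**Figure D5:**
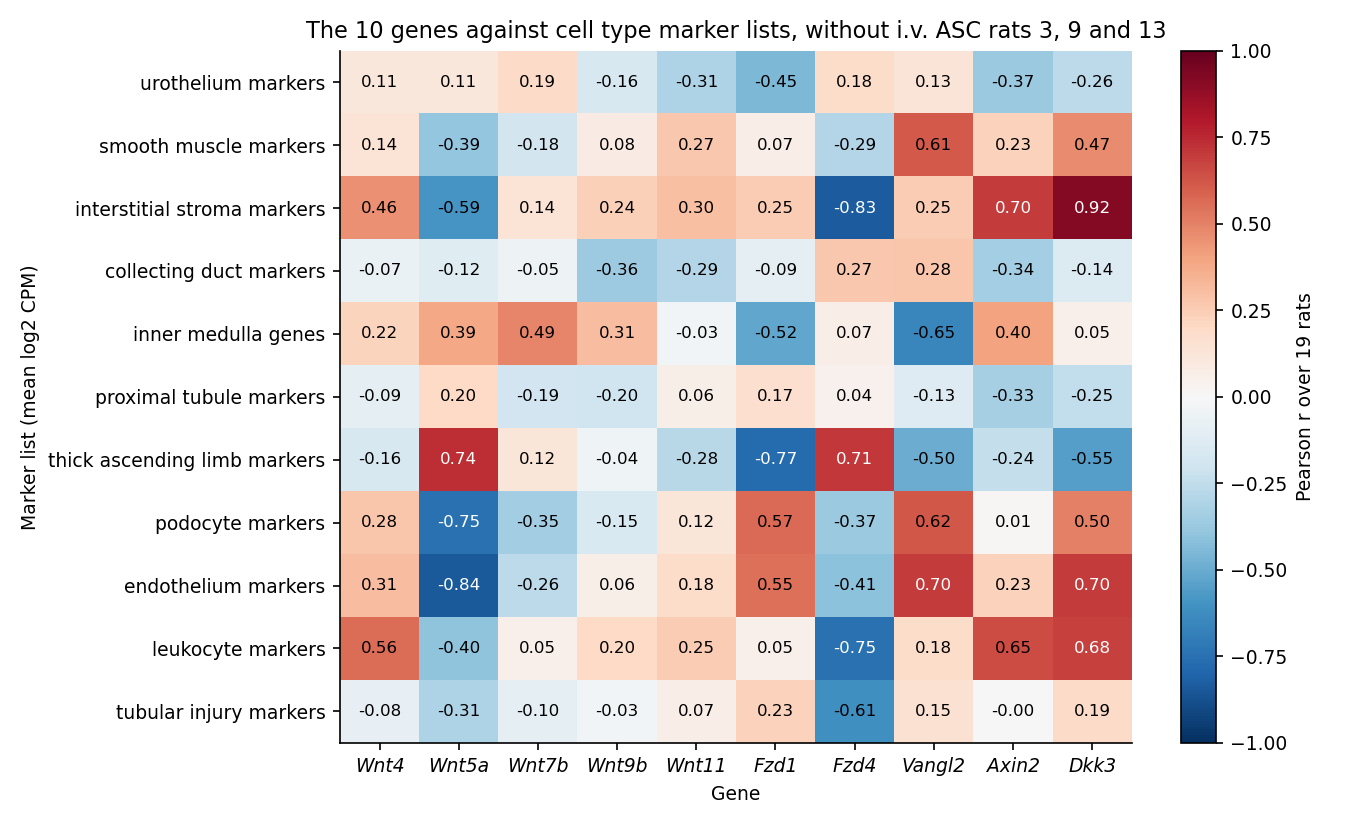
Pearson's r of log2 CPM between each of the 10 genes (x axis) and the mean of each cell type marker list (y axis) over the 19 rats without i.v. ASC rats 3, 9 and 13, with the colour scale from -1 to 1 and r printed in each cell. The highest is Dkk3 with interstitial stroma markers at 0.92 and the lowest is Wnt5a with endothelium markers at -0.84.

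The genes most like each of the 10, up to 3 for each, were taken as those with the highest Pearson's r of log2 CPM over the 22 rats among all genes tested, so their r is high by construction. For Dkk3 they were the collagen gene Col6a2, Gypc and the secreted glycoprotein gene Fstl1, each with r = 0.96, and for Wnt5a the phospholipid flippase Atp11a (0.97) and the glycosyltransferases Mgat3 and B3galt5 (0.96 each). Fzd4 was near to Tob1 and Sacm1l (0.87 each), Axin2 to the chromatin reader Brd2 (0.88), Igsf10 (0.85) and Clec2l (0.83), and Fzd1 to Myrf (0.86), Tlcd5 and the tight junction gene Cldn1 (0.84 each). Wnt4 was nearest to Alox12 (0.90) and the syndecan Sdc1 (0.89), Wnt7b to Plet1 (0.89), the organic anion transporter Slco4a1 (0.88) and Eps8l1 (0.87), and Wnt9b to Upk3bl1 (0.84), Lypd2 (0.82) and Qsox1 (0.81). Of the genes named for these 3 ligands, Alox12 had its highest level in i.v. ASC rat 13 and the others in rat 9. Wnt11 and Vangl2 had the loosest neighbours, Rilpl2, Tymp and Chst14 at 0.74, 0.74 and 0.72 and Palmd, Ak1 and Fgf18 at 0.77, 0.74 and 0.73.

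Among the 10 genes themselves, Axin2 and Dkk3 tracked each other over rats (r = 0.73 over 22 rats, 0.38 over the 17 without the 5 rats of high Slc7a13), and Wnt5a and Dkk3 ran in opposite directions (-0.78 and -0.20). Wnt4, Wnt7b and Wnt9b had r of 0.13, -0.06 and 0.09 in their 3 pairs over the 19 rats without rats 3, 9 and 13, against 0.78, 0.67 and 0.74 with those 3 rats.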

How the data were processed

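Kidney RNA of 22 rats was compared by treatment label: untreated, i.p. ASC, i.v. ASC and ASC-derived CM. Per the labels, the deposited values are estimated counts per Entrez gene without normalization and TPM, both made by the authors. The submitters' processing notes name Trim Galore 0.6.4, kallisto 0.4.6 and the build rn6, and the study's methods name DESeq2 and a human transcript package. How reads shared by paralogs or overlapping genes were split is not given in the sources used here.

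Counts were rounded (14.1% were not whole). Of 17334 genes, 17179 were matched to symbols through the RefSeq table of GRCr8, used for names and promoters. Total counts ran from 12195682 to 14734772, and few counts limit Wnt4, Wnt11 and Vangl2. edgeR 4.0.16 in R 4.3.3 (quasi-likelihood F test with TMM and filterByExpr, one fit over the 4 groups, Benjamini-Hochberg, threshold 0.05) tested 12867 genes. Within each group, the counts of any 2 rats differed by more than sampling noise. The 10 genes, the marker lists and the wider lists were chosen with earlier results of these data known. Genes named were the 10, the 2 of the wider lists with the smallest unadjusted p per comparison and every one past the threshold, the 3 nearest genes by r for each of the 10, and marker genes beside a result, and 2 of the nearest genes are not reported here. Log2 CPM used a prior count of 2. Alternatives were RLE size factors, DESeq2 1.42.0, other filters, limma 3.58.1 on log2(TPM + 1) and log2(TPM + 0.1), only the groups compared, 1 surrogate variable from sva 3.50.0, marker covariates and leaving out each rat. The podocyte covariate and the sets of 3 and 5 rats left out were chosen after seeing the data. Where the rats left out hold the extreme values of a gene, its shift follows from that choice.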

Additional observations from a re-analysis of the deposited data

Results flagged for a closer look

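Of 40 pairs of a gene and a group, 2 had a rat far from the others of its group by Dixon's test at the 95% level, which chance gives in about 1 of 20 groups. Wnt7b was at 1.74 TPM in i.p. ASC rat 5, with the nearest rat of the group at 2.98 TPM. Fzd4 was at 37.4 TPM in i.v. ASC rat 8, with the nearest at 50.2 TPM. Rat 5 is one of the 5 rats with Slc7a13 above 1000 TPM, and rat 8 had 33.9 TPM of Slc7a13.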

How the results depend on the processing

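Of 40 log2 fold changes of the 10 genes (4 comparisons), 27 kept their direction under every alternative other than leaving out 1 rat, where a change of sign with both values within 1 SE of 0 was not counted (38 such cases in 488). With 1 surrogate variable, Wnt5a turned to -0.17 after i.p. ASC and -0.11 after i.v. ASC, Dkk3 to 0.135 after i.p. ASC, and Fzd4 to -0.126 after i.v. ASC and -0.117 after ASC-derived CM. With the urothelium covariate, i.v. ASC against untreated gave Wnt5a -0.30, Wnt7b -0.30, Wnt9b -0.58 and Fzd4 -0.21, and i.v. against i.p. ASC gave Wnt5a -0.68, Wnt7b -0.028, Wnt9b -0.14, Fzd1 0.11, Axin2 0.28 and Dkk3 0.46. With the podocyte covariate, Wnt5a was -0.21 after i.v. ASC and -0.30 between the routes, and Fzd4 -0.15 after i.v. ASC and -0.14 after ASC-derived CM. Without rats 3, 9 and 13, i.v. ASC against untreated gave Wnt5a -0.10, Wnt7b -0.12, Wnt9b -0.50 and Fzd4 -0.15, and the routes gave Wnt5a -0.49 and Wnt9b -0.024. Without the 5 rats of high Slc7a13, Wnt5a was -0.062 and Dkk3 0.15 after i.p. ASC, and Fzd4 was -0.10 after i.v. ASC and -0.12 after ASC-derived CM. DESeq2 called Wnt4 after i.v. ASC at 2.20. The cause of these changes was not tested.

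Genes called over the whole table numbered 22 after i.v. ASC, 5 after ASC-derived CM, 21 between the routes and 37 for any difference in DESeq2, against 0, 0, 0 and 11 in edgeR. ASC-derived CM had 1 call with only its groups in the fit and 1 without the 5 rats, and the routes had 4 with 1 surrogate variable. For any difference the count was 4 with 1 surrogate variable and 0 with at least 10 counts in every rat, with either limma scale, with the urothelium or podocyte covariate, and without the 3 or the 5 rats. Leaving out 1 rat gave 0 to 14 calls after i.v. ASC (14 without rat 14, 11 without rat 8), 0 to 13 between the routes (13 without rat 8 or 14), 0 to 18 for any difference (0 without rat 9), and 0 after i.p. ASC and ASC-derived CM. It moved Wnt11 after i.v. ASC between -0.33 and 0.15 and gave Fzd4 after ASC-derived CM values from -0.135 to 0.094, and r of Wnt4 and Upk3a over 19 rats ran from -0.10 to 0.10. No paired analysis was possible because the groups share no animal numbers. Depth limits the precision of Wnt4, Wnt11 and Vangl2, with as few as 6 counts in a rat.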
